A study of Oryza sativa Japonica Group with 4 samples.

Results

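The genes described here are rice glutaredoxins, thioredoxins, peroxiredoxins and the antioxidant enzymes ascorbate peroxidase, monodehydroascorbate reductase, catalase and superoxide dismutase, followed in the lamina joint of ila1 and wild-type plants. They were chosen by gene symbol or RefSeq synonym, without class III peroxidases, and only through probe sets paired with exactly 1 gene. The names matched 64 genes of the RefSeq gene table. One of them, TRX1, carries the synonyms SDG723 and OsSET33 and is a trithorax-type histone methyltransferase rather than a thioredoxin, so it is given apart and 63 redox genes remain. Of these, 51 have at least 1 probe set on the array (73 probe sets), and 50 have one bright enough to be tested, out of 15633 genes tested in all. No glutathione peroxidase name was matched.

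The lamina joint joins the blade of a rice leaf to its sheath and determines how far the blade leans out. RNA came from lamina joints at the tillering stage of the japonica cultivar Zhonghua11 (ZH11, wild type, 2 arrays) and of the mutant ila1 (2 arrays), a line defective in a kinase of the Raf-like group whose leaves lean out further. Each sample was read on 1 Affymetrix Rice Genome Array, and both arrays of a genotype are labelled as biological replicates without the number of plants in each, so a p-value speaks only of the spread among these 4 samples. Values are array signals in linear units. Fold changes are ila1 against ZH11 on the log2(signal + 16) scale, which understates the change of dim genes.

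Cells keep protein thiols reduced through a pair of systems. Thioredoxins take electrons from NADPH or ferredoxin through their reductases, and glutaredoxins take them from glutathione; by the naming convention a glutaredoxin S has serine and a glutaredoxin C has cysteine at the second position of the active-site pair. Superoxide dismutases turn superoxide into hydrogen peroxide, which catalases, peroxiredoxins and, at the cost of ascorbate, ascorbate peroxidases remove, while monodehydroascorbate reductases regenerate ascorbate. In Arabidopsis a plant-specific branch of glutaredoxins, the ROXY proteins, binds TGA transcription factors.

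Median signal per array was 53.6 to 57.9 over 57258 probe sets, and log2 signals of the 34355 tested probe sets correlated at 0.993 between the ZH11 arrays and 0.970 between the ila1 arrays, against 0.921 to 0.938 across genotypes. LG1, a gene needed for the ligule and lamina joint, read 326 ± 19.9 in ZH11 and 276 ± 59.3 in ila1, BU1, a brassinosteroid-responsive gene of the lamina joint, 198 ± 14.6 and 162 ± 31.5, and LIC, a regulator of leaf angle, 106 ± 5.52 and 153 ± 18.3 (SD, n = 2 each). LG2 read under 24 on every array and was not tested, and of the names listed for roots, NAS1, an iron-response gene, read 17.5 to 24.8. The same list matched by name the sucrose synthases SUS1 (RSs2), at 1414 to 1776, and SUS2 (RSS1), at 3676 to 3870, so the root list gave both dim and bright members and no clear check of roots. Of 3 tested genes of dividing cells (OsPCNA, CYCB2 and CDKB2-1) none passed the test.

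Of the 50 tested redox genes, 2 rose and 5 fell in ila1 at a limma adjusted p under 0.05. That is 14% called, with 4% higher and 10% lower, against 18.3% of all 15633 tested genes, 5.68% higher and 12.6% lower, so the share called lies near the background. All 7 calls fell on glutaredoxins and thioredoxins: GRXS3, GRXS2, GRXS5, GRXS9 and OsTrxh4-2 were lower, and GRXC7 and OsTrxh4-1 were higher. The median log2 fold change was 0.01 over the redox genes and -0.02 over all tested genes, with median absolute values of 0.26 and 0.28. In RNA from whole lamina joints, fewer cells of a type and less RNA per cell cannot be told apart.

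**Figure D1:**
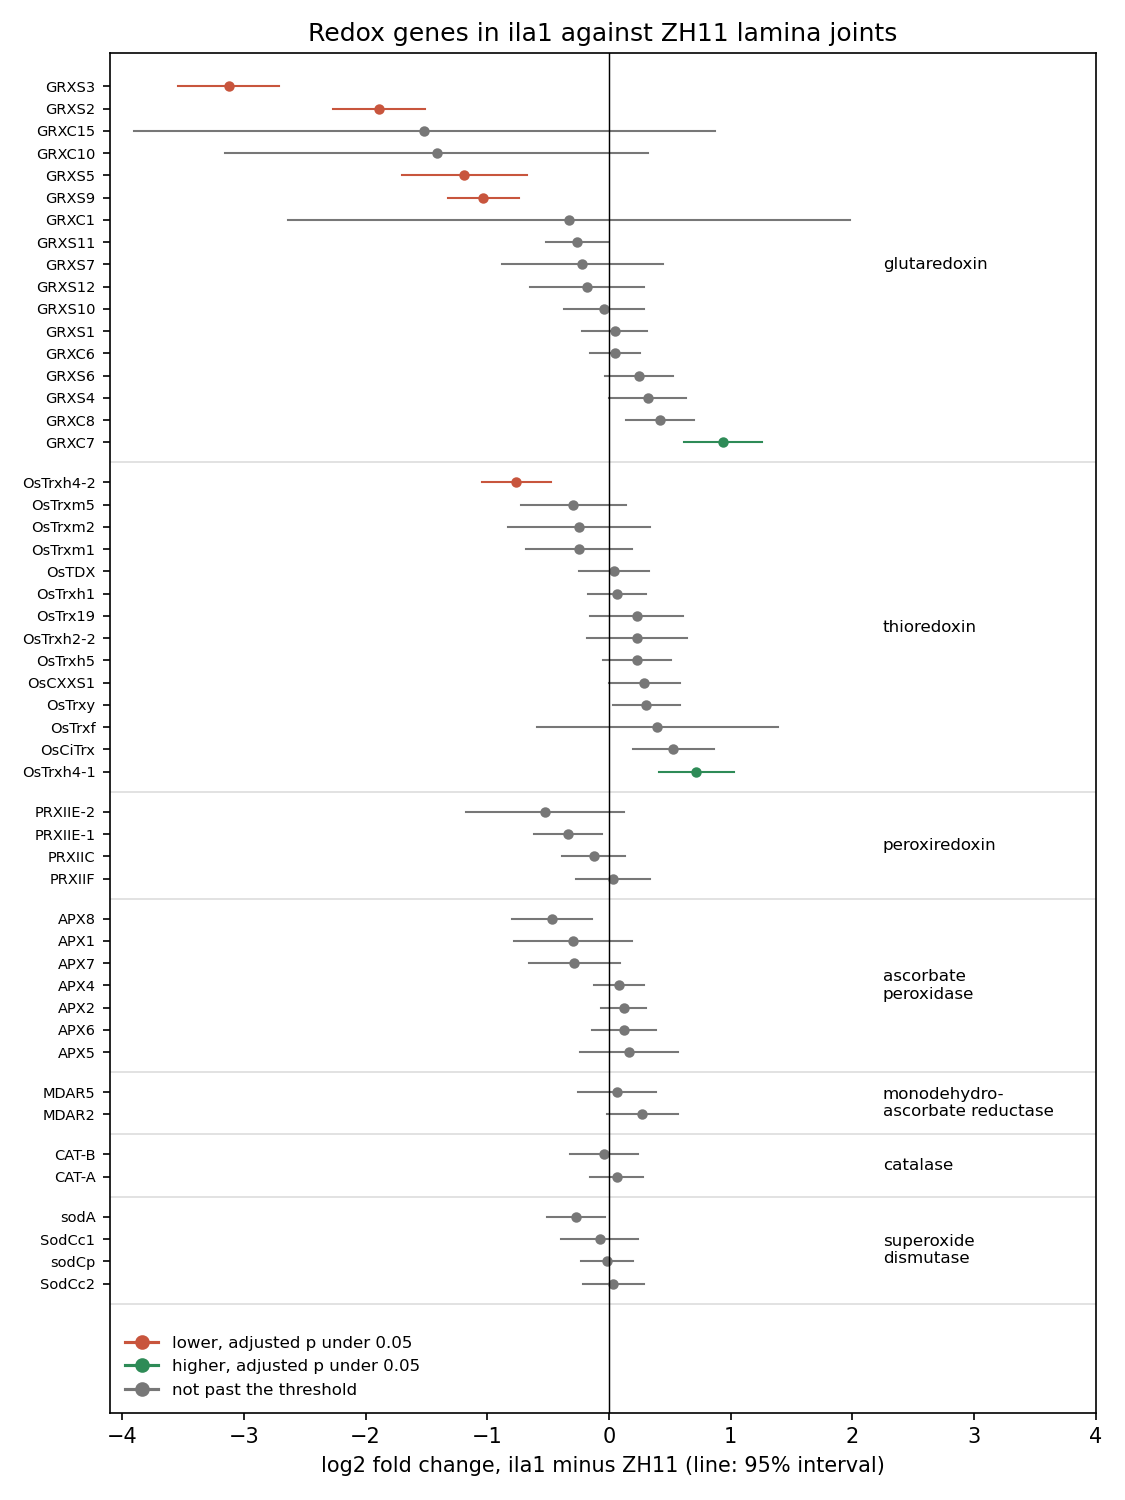
Log2 fold change, ila1 minus ZH11, of the 50 tested redox genes by family, with lines for the 95% interval of each gene (not adjusted for the number of genes). Coloured points passed the limma test at an adjusted p under 0.05: 5 lower genes, 2 higher genes, with GRXS3 farthest to the left at -3.13, and the widest intervals at GRXC15, GRXC1 and GRXC10.

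Glutaredoxins held 5 of the 7 calls. Of 17 tested glutaredoxin genes, 4 fell and 1 rose (29.4% called, against 18.3% of all tested genes), at a median log2 fold change of -0.22. The falls were all among the 11 tested genes with S names, of which 36.4% were lower, against 12.6% of all tested genes, and the rise was among the 6 tested genes with C names; the difference between S and C names was not tested.

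GRXS3, a glutaredoxin with an S name, read 1221 and 1446 in ZH11 against 152 and 125 in ila1. The groups lay far apart, and GRXS3 was the largest difference among the redox genes, 8.73-fold lower in ila1 (log2 fold change -3.13 ± 0.16 SE, limma adjusted p = 0.00238). GRXS2 read 3129 and 3371 on the ZH11 arrays against 971 and 771 on the ila1 arrays. It was 3.70-fold lower (log2 fold change -1.89 ± 0.15, limma adjusted p = 0.00419), without overlap of the groups. Its only probe set is of the kind whose suffix marks probes shared by several transcripts, so part of the signal may come from a related transcript, which was not tested.

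GRXS5 read 7549 and 7787 in ZH11 against 2748 and 4096 in ila1. Both ila1 arrays lay below both ZH11 arrays, but they differed from each other by 0.57 on the log2 scale, the most of the 7 called genes (2.28-fold lower, log2 fold change -1.19 ± 0.20, limma adjusted p = 0.0233). GRXS9 read 6976 and 6933 in ZH11 against 3093 and 3719 in ila1. It fell 2.05-fold (log2 fold change -1.03 ± 0.11, limma adjusted p = 0.0084).

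GRXC7 went the other way. It read 180 and 167 in ZH11 against 354 and 339 in ila1, a 1.91-fold rise (log2 fold change 0.94 ± 0.12, limma adjusted p = 0.0136). GRXC8 read 1642 and 1490 in ZH11 and 2162 and 2032 in ila1 and missed the threshold (log2 fold change 0.42 ± 0.11, limma adjusted p = 0.0644).

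**Figure D2:**
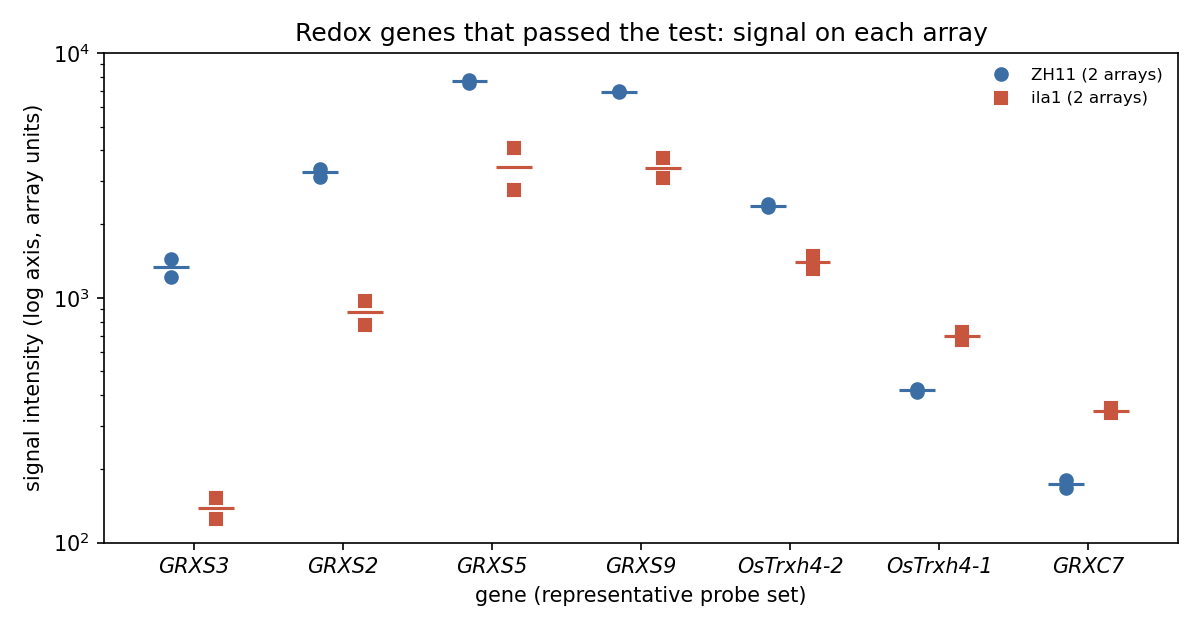
Signal on each of the 4 arrays (log axis, array units) for the 7 redox genes that passed the test, ordered by log2 fold change, with horizontal bars at the mean of each genotype (n = 2). In none of the 7 genes did the ZH11 and ila1 arrays overlap. With 2 arrays per genotype this is common: it held for 30 of the 50 redox genes and 10661 of all 15633 tested genes. GRXS3 went from a mean of 1333 to 139.

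Of the 4 called S-named genes, each is read by 1 probe set. The other S-named glutaredoxins gave smaller values. GRXS4 read a log2 fold change of 0.32 ± 0.12 and GRXS6 0.25 ± 0.11, while GRXS11 read -0.26 ± 0.10 on the brighter of its probe sets and -0.03 on the other. GRXS1, GRXS7, GRXS10 and GRXS12 lay between -0.22 and 0.05, and none of these 7 genes passed. The dimmer probe sets of GRXS10 read -0.41 (unadjusted p = 0.0222, limma adjusted p = 0.0908, groups not overlapping) and 0.15. GRXS1 read 1411 and 1496 in ZH11 and 1529 and 1472 in ila1, with a 95% interval of -0.22 to 0.31, which does not reach the falls of GRXS2, GRXS3, GRXS5 or GRXS9; the difference between these genes was not tested.

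The C-named glutaredoxins GRXC15, GRXC10 and GRXC1 varied more between arrays of a genotype than any other redox gene. GRXC15 read 1393 and 1760 on the ZH11 arrays but 190 and 1468 on the ila1 arrays. GRXC10 read 281 and 397 in ZH11 and 49.3 and 248 in ila1, and GRXC1 201 and 503 in ZH11 and 97.7 and 613 in ila1. In all 3 genes replicate 1 was the lower array in both genotypes. The groups overlapped for GRXC15 and GRXC1 and not for GRXC10, and none passed the test: log2 fold changes were -1.52 ± 0.92, -1.42 ± 0.67 and -0.33 ± 0.89. Without ila1 replicate 1 that of GRXC15 was -0.09, that of GRXC10 -0.41 and that of GRXC1 0.91. Without ila1 replicate 2 they were -2.94, -2.42 and -1.56. The size of each difference, and for GRXC1 its sign, depends on which ila1 array is kept. GRXC6 read 4775 ± 160 and 4929 ± 134 (log2 fold change 0.05 ± 0.08).

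GRXC3, also named ROXY2, read 24.6 to 49.7 over the arrays and was too dim to be tested. GRXC5, also named ROXY1, has no probe set paired with it alone, nor have GRXC2, GRXC4, GRXC11, GRXC13 and GRXC14. In the RefSeq table GRXC14 lies next to GRXC15 and GRXC11 next to GRXC10, and whether probes for one also read its neighbour was not tested.

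**Figure D3:**
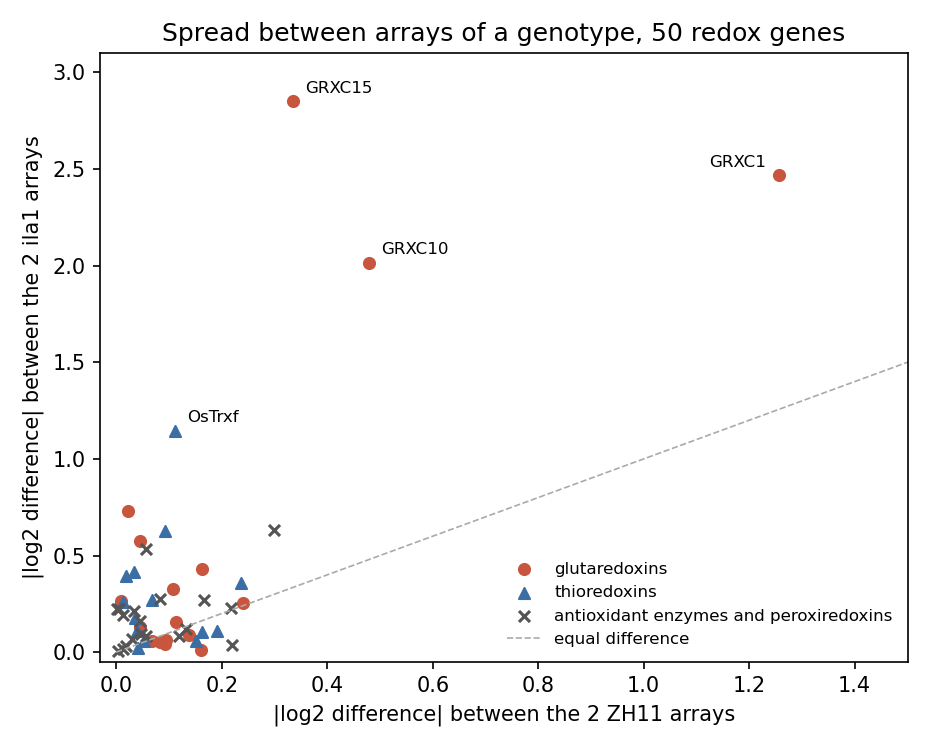
Absolute log2 difference between the 2 arrays of a genotype for the 50 tested redox genes, ZH11 on the horizontal axis and ila1 on the vertical axis, with a dashed line where both are equal. GRXC15, GRXC1, GRXC10 and OsTrxf are the 4 genes whose ila1 arrays differ by more than 1 on the log2 scale (2.85, 2.47, 2.02 and 1.15).

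Among 14 tested thioredoxin genes, 1 rose and 1 fell (14.3% called, near the 18.3% of all tested genes), at a median log2 fold change of 0.23. Both belong to the h type, which in plants works mainly outside the plastid, and they carry the paired names OsTrxh4-1 and OsTrxh4-2. OsTrxh4-1 read 425 and 413 in ZH11 against 672 and 727 in ila1. Its ila1 signal was 1.65-fold that of ZH11, without overlap (log2 fold change 0.72 ± 0.12, limma adjusted p = 0.0234). OsTrxh4-2 read 2407 and 2347 in ZH11 against 1312 and 1487 in ila1, a 1.69-fold fall (log2 fold change -0.76 ± 0.11, limma adjusted p = 0.0167).

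The signal of OsTrxh4-2 depends on the probe set. A second one fell further, from 881 and 809 to 369 and 404 (log2 fold change -1.10 ± 0.13, limma adjusted p = 0.00963). The dim remaining one read 62.1 and 70.2 in ZH11 and 86.4 and 117 in ila1, in the opposite direction without passing (log2 fold change 0.51 ± 0.16, limma adjusted p = 0.104). With the mean of all 3 probe sets OsTrxh4-2 was at -0.45 and missed the threshold (limma adjusted p = 0.0804). The suffix of the 2 falling probe sets marks probes shared by several transcripts. The whole set of 69 tested probe sets held 2 higher and 6 lower calls, that is, 8 calls where 15.1% of all 34355 tested probe sets were called, 4.71% higher and 10.4% lower.

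The other thioredoxins not named as types f, m or y did not pass. OsTrxh1, also named RPP13-1 and known in rice as a protein of phloem sap, read 6773 ± 540 in ZH11 and 7089 ± 358 in ila1 (95% interval of the log2 fold change -0.17 to 0.30). OsTrxh2-2 read 0.23 ± 0.16 and OsTrxh5, near the lower limit of the tested range at 54.9 to 73.5, read 0.23 ± 0.11. OsCXXS1, a thioredoxin-like protein with a serine in its active site, read 3652 ± 23.7 and 4483 ± 566 (0.29 ± 0.11), OsTDX, whose Arabidopsis relative joins a thioredoxin domain to repeats that bind chaperones, 0.04 ± 0.11, and OsTrx19 0.23 ± 0.15. OsCiTrx, named after a tomato protein that interacts with the Cf-9 immune receptor, read 617 and 706 in ZH11 and 997 and 923 in ila1. The groups did not overlap, and it missed the threshold (log2 fold change 0.53 ± 0.13, limma adjusted p = 0.0578), which it passed under each of the 3 other scalings. No probe set is paired alone with OsTrxh2-1, OsTrxm3, OsTrxx or OsTrxo1.

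Thioredoxins of the plastid types f, m and y carry light-driven electrons to chloroplast enzymes. The ila1 arrays differed on the log2 scale by 1.15 for OsTrxf, 0.42 for OsTrxm1, 0.63 for OsTrxm2 and 0.36 for OsTrxm5. For OsTrxy they differed by 0.06 only, and the median over all tested genes was 0.21. OsTrxf read 900 and 832 in ZH11 against 765 and 1712 in ila1 (log2 fold change 0.40 ± 0.38). Without ila1 replicate 1 its log2 fold change was 0.97, and without ila1 replicate 2 it was -0.18. OsTrxm1, OsTrxm2 and OsTrxm5 read -0.25 ± 0.17, -0.25 ± 0.23 and -0.29 ± 0.17, and OsTrxy 0.31 ± 0.11 (unadjusted p = 0.0359, limma adjusted p = 0.119). All 5, a set put together after their values were seen, were higher on ila1 replicate 2 than on ila1 replicate 1, by a median of 0.42 on the log2 scale. The set holds types f, m and y only. OsCiTrx, which is not in it, went the other way, with 997 on ila1 replicate 1 and 923 on ila1 replicate 2. A list of 5 other redox genes of the plastid (APX7, APX8, sodCp, PRXIIE-1 and PRXIIE-2) was also put together after values were seen. Of these, 3 were higher on ila1 replicate 2, by a median of 0.04 over the 5. Of all tested genes 47.1% were higher on that array. The 6 tested markers of photosynthetic tissue (CAB2R, rca, OsrbcS, OsPSAG, PSAH and PSB28) were all higher there too. Their summed signal was 22608 and 24311 in ZH11 against 16222 and 27713 in ila1; the part of leaf tissue in these values was not tested. PSB28, a photosystem protein, was the marker that passed between genotypes, as higher in ila1 (log2 fold change 0.59, limma adjusted p = 0.0425). The other markers went both ways without passing. PSAH read -0.71, CAB2R -0.58 and rca -0.09, while OsrbcS read 0.22 and OsPSAG 0.67. The median log2 fold change of the 6 markers was 0.07.

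None of the 19 tested peroxiredoxins and antioxidant enzymes passed the limma test, against 18.3% of all tested genes. APX8, PRXIIE-1 and sodA were under an unadjusted limma p of 0.05, and the share of all tested genes under it was not counted. Other scalings of the arrays move the median of all genes upward in ila1. After quantile normalization MDAR2 alone of the 19 passed, as higher (log2 fold change 0.52), where 21.4% of all tested genes were called. When scaled to hybridization controls APX2 and CAT-A passed as higher (0.38 and 0.32), where 21.3% of all tested genes were called. For 18 of the 19 the log2 fold change was under 0.5 in size, as for 70.9% of all tested genes, and their median was -0.02.

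The catalases CAT-A and CAT-B, which break down hydrogen peroxide in peroxisomes, had some of the closest values of the genotypes. CAT-A read 7948 and 8201 in ZH11 against 7982 and 8934 in ila1, overlapping (log2 fold change 0.06, 95% interval -0.15 to 0.28). CAT-B read 3122 and 3049 against 3224 and 2780 (log2 fold change -0.04, 95% interval -0.32 to 0.24). None of their 8 probe sets passed. As ratios, the intervals run from 0.900 to 1.22 for CAT-A and from 0.799 to 1.18 for CAT-B, so they leave room for small changes either way.

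None of the 4 superoxide dismutases passed. The plastid copper-zinc enzyme sodCp read 4116 ± 59.4 and 4069 ± 134 (95% interval of the log2 fold change -0.23 to 0.19), and the cytosolic SodCc2 5051 ± 29.9 and 5187 ± 493 (-0.21 to 0.28). SodCc1, also cytosolic, read 3542 ± 146 and 3377 ± 455 (-0.39 to 0.24). The mitochondrial manganese enzyme sodA read 2861 and 2975 in ZH11 against 2486 and 2344 in ila1. Its groups did not overlap, and it did not pass (log2 fold change -0.27 ± 0.09, unadjusted p = 0.0327, limma adjusted p = 0.113). The suffix of this probe set marks probes shared by several transcripts. A dim probe set of sodA, at 35.7 to 48.3, went the other way, also without overlap. It read 0.26 ± 0.09 and did not pass (unadjusted p = 0.0323, limma adjusted p = 0.112). Another dim one read -0.13.

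Among 7 tested ascorbate peroxidases, the log2 fold changes ran from -0.47 to 0.17. The lowest was that of APX8, the enzyme of the thylakoid membrane, which read 1055 and 1231 in ZH11 and 807 and 830 in ila1 and missed the threshold (-0.47 ± 0.13, unadjusted p = 0.0145, limma adjusted p = 0.0717). APX7, the plastid stroma enzyme, read -0.29 ± 0.14 and the cytosolic APX1 -0.30 ± 0.19. The cytosolic APX2 read 5829 and 5752 in ZH11 and 6231 and 6375 in ila1 (0.12 ± 0.07), and the peroxisomal APX4 0.08 ± 0.08. APX5 and APX6, neighbours in the RefSeq table, read 0.17 ± 0.16 and 0.12 ± 0.10. APX3 has no probe set paired with it alone.

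The monodehydroascorbate reductases MDAR2 and MDAR5 read 0.27 ± 0.11 and 0.07 ± 0.13, with MDAR2 at 1339 ± 88.0 in ZH11 and 1623 ± 95.7 in ila1 (limma adjusted p = 0.162). MDAR1, the neighbour of MDAR2, has no probe set of its own. Of the 4 peroxiredoxins, which reduce peroxides with electrons from thioredoxins or glutaredoxins, PRXIIE-1 read 1331 and 1376 in ZH11 and 1032 and 1103 in ila1 without passing (-0.34 ± 0.11, unadjusted p = 0.0259, limma adjusted p = 0.0986). PRXIIE-2 read -0.53 ± 0.25, PRXIIC -0.13 ± 0.10 and PRXIIF 0.03 ± 0.12.

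Around these families stand enzymes that feed or share the same chemistry. In a list of 30 tested genes for glutathione S-transferases, glutathione synthesis, thioredoxin reductases, methionine sulfoxide reductases, glyoxalase, NADPH oxidase, alternative oxidase, metallothioneins and ascorbate synthesis, 1 rose and 1 fell (6.67% called against 18.3% of all genes), at a median log2 fold change of 0.08. Both were metallothioneins, small cysteine-rich proteins that bind metals. MT-2, also named MT2A, read 7510 and 7021 in ZH11 and 12589 and 11244 in ila1, a 1.64-fold rise (log2 fold change 0.71 ± 0.09, limma adjusted p = 0.0112). The suffix of this probe set marks probes shared by several transcripts. Other tested probe sets of MT-2 read 0.90 and 0.63 (limma adjusted p = 0.0117 and 0.0371). A dim one, at 15.6 to 22, overlapped between the groups and was not tested. MT2C read 13182 and 12266 in ZH11 and 7963 and 8453 in ila1, a 1.55-fold fall (-0.63 ± 0.07, limma adjusted p = 0.0104). The ZH11 and ila1 arrays did not overlap for either gene, and neither passed with a ZH11 array left out.

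The next smallest p-values of the list, upward, were those of GME-1, an enzyme of ascorbate synthesis (0.61 ± 0.17, limma adjusted p = 0.079), and MT1B (0.48 ± 0.14, limma adjusted p = 0.0833). Downward they were those of MSRA5, which repairs oxidised methionine (-0.40 ± 0.11, limma adjusted p = 0.0711), and OsNTRA, a thioredoxin reductase (-0.61 ± 0.24, limma adjusted p = 0.147). None of these 4 passed. The NADPH oxidase RBOHB, a source of superoxide outside the cell, listed as OsrbohB, read 0.08, and the alternative oxidase AOX1 -0.14. The 6 glutathione S-transferases lay between -0.67 and 0.14, none passing.

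The gene set aside for its name, SDG723, read 469 ± 25.9 in ZH11 and 401 ± 5.42 in ila1 on its brightest probe set (log2 fold change -0.22 ± 0.12, limma adjusted p = 0.268).

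All 7 called redox genes passed under each of the 3 other scalings of the arrays, where GRXS3 lay between -3.06 and -2.88, GRXS2 between -1.82 and -1.63, OsTrxh4-1 between 0.79 and 0.97 and OsTrxh4-2 between -0.69 and -0.49. Leaving out 1 ZH11 array ended every one of these calls: without ZH11 replicate 1 the limma adjusted p ran from 0.0506 (GRXS3) to 0.221, and without ZH11 replicate 2 from 0.0504 (GRXS3) to 0.267, while the log2 fold changes kept their direction. Such a fit takes its spread from the ila1 arrays, which differ more from each other, and only 22 and 114 probe sets of the whole array passed in them. With either ila1 array left out the 7 log2 fold changes also kept their direction. There the spread comes from the closer ZH11 pair and 1 array stands for ila1, so passing is not read as a result.

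**Figure D4:**
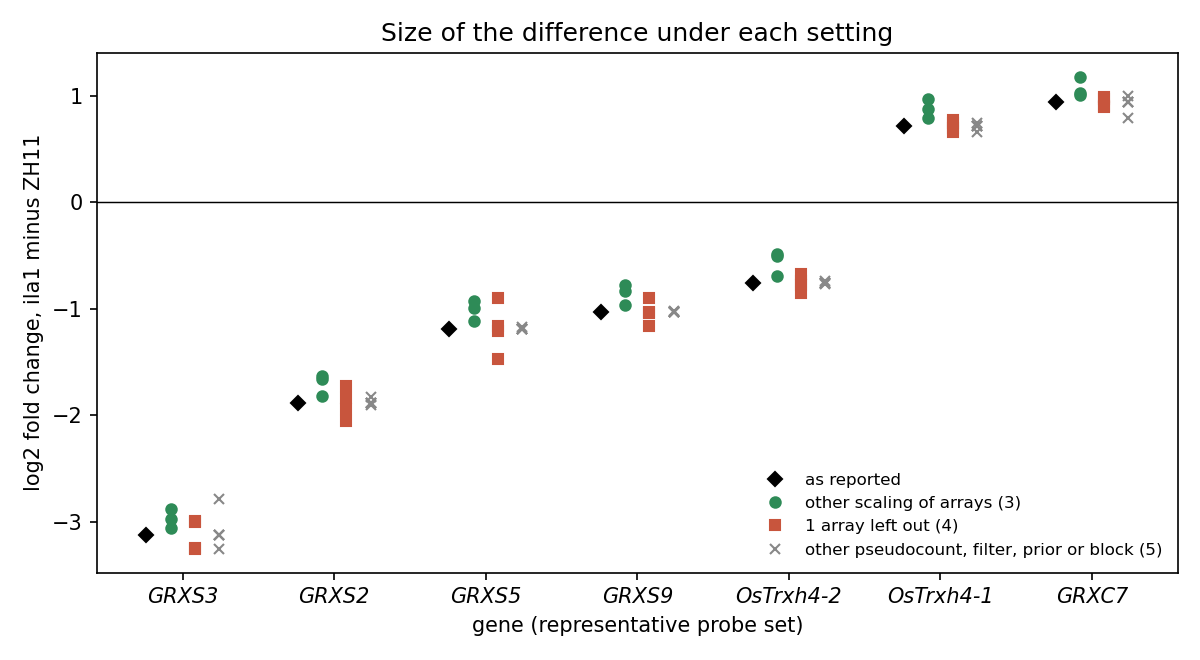
Log2 fold change, ila1 minus ZH11, of the 7 called redox genes as reported (diamonds), under 3 other scalings (circles), with each of the 4 arrays left out (squares) and under 5 other settings of pseudocount, filter, prior variance or replicate block (crosses). No gene crosses 0; with 1 array left out GRXS5 spans -1.48 to -0.90.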

How the data were processed

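The deposited table holds a linear intensity for each of 57381 probe sets on each of 4 arrays (2 ZH11, 2 ila1). TRIzol was used for the RNA, and biotinylated cRNA was made by Affymetrix's standard procedure, per the labels' protocols. How scans became intensities, and with what scaling, is not given in the sources used here. Precision is limited by the number of arrays.

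After removal of 123 control probe sets, log2(intensity + 16) was computed, and the 40% of probe sets lowest in mean log2 value were set aside, leaving 34355 to test. The test was that of limma 3.58.1 (R 4.3.3; lmFit, eBayes with a trend, two-sided, genotype only), with Benjamini-Hochberg adjustment over all tested probe sets and a threshold of 0.05. Intervals are 95% intervals from the same fit, for 1 gene at a time. The fitting code was also run on simulated arrays that gave both genotypes the same spread. The real ila1 arrays differed more than the ZH11 arrays (median 0.177 against 0.104 on the log2 scale). That run therefore does not show how the test performs on these data. Tables and plots used Python 3.11.15, pandas 2.3.3 and matplotlib 3.10.9.

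Outside the controls, the platform annotation names 1 gene for 22436 probe sets, several for 95 and none for 34727. Names came from the RefSeq gene table of ASM3414082v1, used for names and neighbours only. TRX names were read as TRX with any type letter or number. A gene is represented by its tested probe set with the highest mean signal. Every member is named; values go first to those past the threshold without overlap of the groups, and of the related list up to 3 genes per direction with the smallest unadjusted p are named. Members and lists were chosen with earlier results of these data known. Alternatives were other scalings (quantile, median, hybridization controls), pseudocounts of 64 and 1, no filter, no trend, a replicate block, averaging a gene's probe sets and leaving out each array.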

Additional observations from a re-analysis of the deposited data

How the results depend on the processing

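Under each setting that keeps all 4 arrays, except averaging probe sets, which ended the call of OsTrxh4-2, 5 redox genes were lower. The count of higher redox genes moved with the scaling of the arrays, from 2 to 8 after quantile normalization and 9 when scaled to hybridization controls, where higher probe sets of these genes numbered 8 and 12 and higher genes of the related list 5 and 4. Over all tested probe sets, higher calls moved too, from 1619 to 2926 and 3507. The share of all tested genes called in either direction went from 18.3% to 21.4% and 21.3%. Under these scalings the median over all tested genes moves from -0.02 to 0.13 and 0.23 (0.05 after median centring), and that of the redox genes from 0.01 to 0.19 and 0.26. Calls gained there were OsTrxy, OsCXXS1, OsCiTrx, GRXC8 and GRXS6 in both, MDAR2 after quantile normalization, and APX2 and CAT-A under the control scaling. OsCiTrx also passed after median centring. With 1 array left out, higher redox genes numbered 0 to 8, lower ones 0 to 20, their probe sets 0 to 10 and 0 to 25, genes of the related list 0 to 8 higher and 0 to 10 lower, and all called probe sets 22 to 14800, against 5191. Same-numbered arrays deviated together at a correlation of 0.103 only, and 2 pairs cannot show a pairing. With a replicate block the 7 redox calls stayed, higher genes of the related list numbered 2, and 4816 probe sets were called.

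Some genes that did not pass changed sign. Without passing, under quantile normalization and the control scaling, in that order, CAT-B read 0.19 and 0.21, GRXS10 0.13 and 0.21, GRXS12 0.0277 and 0.0726, GRXS7 0.0012 and 0.0366, PRXIIC 0.0329 and 0.13, SodCc1 0.15 and 0.18, and sodCp 0.19 and 0.24. Median centring gave 0.0244 for CAT-B, 0.0237 for GRXS10 and 0.0509 for sodCp, and the control scaling 0.0105 for OsTrxm1 and 0.0092 for OsTrxm2. With 1 array left out the ranges were -0.0164 to 0.15 for CAT-A, -0.15 to 0.0631 for CAT-B, -1.56 to 0.91 for GRXC1, -0.12 to 0.0333 for GRXS10, -0.40 to 0.0329 for GRXS12, -0.58 to 0.15 for GRXS7, -0.0469 to 0.18 for MDAR5, -0.18 to 0.97 for OsTrxf, -0.0143 to 0.15 for OsTrxh1, -0.56 to 0.0679 for OsTrxm2, -0.0266 to 0.0924 for PRXIIF, -0.21 to 0.0628 for SodCc1, -0.0617 to 0.13 for SodCc2 and -0.0501 to 0.0168 for sodCp. Of these, GRXC1, GRXS12, GRXS7, OsTrxm2 and SodCc1 had the low end of their range without ila1 replicate 2. OsTrxf had its high end without ila1 replicate 1. The cause was not tested.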
